A study of Mus musculus with 123 samples.

Results

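The regions described here are stretches of the mouse genome that were called as peaks of histone H3 lysine 4 methylation in a peak list named ES1 and in neither of its companion lists, ES2 and ES3. They were chosen by the lists themselves: touching or overlapping peaks of the 3 lists on chromosomes 1 to 19 were merged into union regions, and a region was kept where it held an ES1 peak, no ES2 or ES3 peak, and was under 10000 bp wide. This gave 8416 regions, which were 27.2% of the 30974 union regions and 32.9% of the 25552 regions with an ES1 peak. Each of them was a single ES1 peak. The remaining regions were 3896 called in ES2 alone, 903 in ES3 alone and 17759 called in at least 2 lists, named shared regions below. ES1 was the longest list, with 26292 peaks, against 21543 in ES2 and 12391 in ES3. With every list shortened to 12391 peaks, the number called in ES1 alone was 5017 when the peaks were taken from the top by score and 3628 by reads. Since the lists chose the members, the counts, widths and reads of the members are a description, and no test was made on them.

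The series profiled single cells by chromatin immunoprecipitation after each cell's chromatin had been cut with micrococcal nuclease and barcoded in a droplet. Its 123 libraries, 86 with an antibody against H3K4me2 and 37 against H3K4me3, came from V6.5 mouse embryonic stem cells (mESC) grown with serum and LIF, mouse embryonic fibroblasts (MEF) from a commercial source, and EML cells, a hematopoietic progenitor line. The groups of H3K4me2 libraries are 55 and 4 of mESC with 2 ranges of barcodes, 24 of pools of mESC and MEF, and 3 of MEF, and those of H3K4me3 are 19 of pools of mESC and MEF, 10 labelled as a mix of both, 4 of pools of mESC and EML cells and 4 of pools of EML cells and MEF. The peak lists belong to the whole series and could not be tied to a group of libraries. Their names are read here as sets of embryonic stem cells. Not given in the sources used here are the mark, the libraries and cells behind each list, the peak caller and the rule that sorted cells into lists. If cells were sorted by the same profiles, what is called in ES1 alone is partly set by that sorting. No list has a replicate, so no difference below has a p-value, and every 95% interval covers counting error only. The intervals treat regions as independent of each other, and whether intervals overlap is a description and no test.

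Methylation of lysine 4 on histone H3 is laid down by the Set1 and MLL family of methyltransferases. The trimethylated form sits at the starts of active genes and at CpG island promoters that are poised for later use, which in embryonic stem cells often carry the repressive H3K27me3 mark as well. The dimethylated form spreads further, over the flanks of promoters and over enhancers, so peaks beside a strong promoter and peaks far from any promoter are both familiar features of maps of this mark. No gene annotation of mm9, the build of the lists, was used here, so the regions are given by position, and whether one lies at a promoter, in a gene or between genes was not analysed.

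Regions called in ES1 alone were narrower and held fewer reads than the ES1 peaks of shared regions. Small width was not particular to them, since the median was 1032 bp for ES2 alone and 940 bp for ES3 alone. The median width of the members was 1176 bp, with quartiles of 660 and 1838 bp and a range of 500 to 9274 bp. It was 2014 bp for the 17462 ES1 peaks of shared regions. The smallest width class, up to 510 bp, held 16.7% of the members (95% interval 15.9 to 17.5) and 5.29% of the ES1 peaks of shared regions (4.96 to 5.63). At the other end, 71 members, or 0.844% (0.659 to 1.06), reached 5000 bp, against 14.5% (13.9 to 15.0) of the ES1 peaks of shared regions. The widest member fell just under the width limit at 9274 bp, and no region of ES1 alone was left out by that limit.

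The number of reads behind a peak was recovered from the score that the authors deposited with it. That score multiplied by the length of an inner interval, given for each peak and starting at its start, came out, in 100% of peaks, as a whole number of steps whose size depended on the chromosome and the list. The number of steps was taken as the reads in the inner interval. That a step is 1 read is an assumption. Members held a median of 13 reads, with quartiles of 11 and 17 and a range of 8 to 85, and the ES1 peaks of shared regions a median of 18. The score itself had a median of 14.7 in members and 14.5 in ES1 peaks of shared regions. It is read here as the read density of the inner interval relative to the chromosome, which is inferred from the steps. On that reading, the members were shorter and had fewer reads at a similar relative density. Even so, 1807 members (21.5%, 20.6 to 22.4) had at least as many reads as the median ES1 peak of a shared region, and 234 (2.78%) had over 30.

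**Figure D1:**
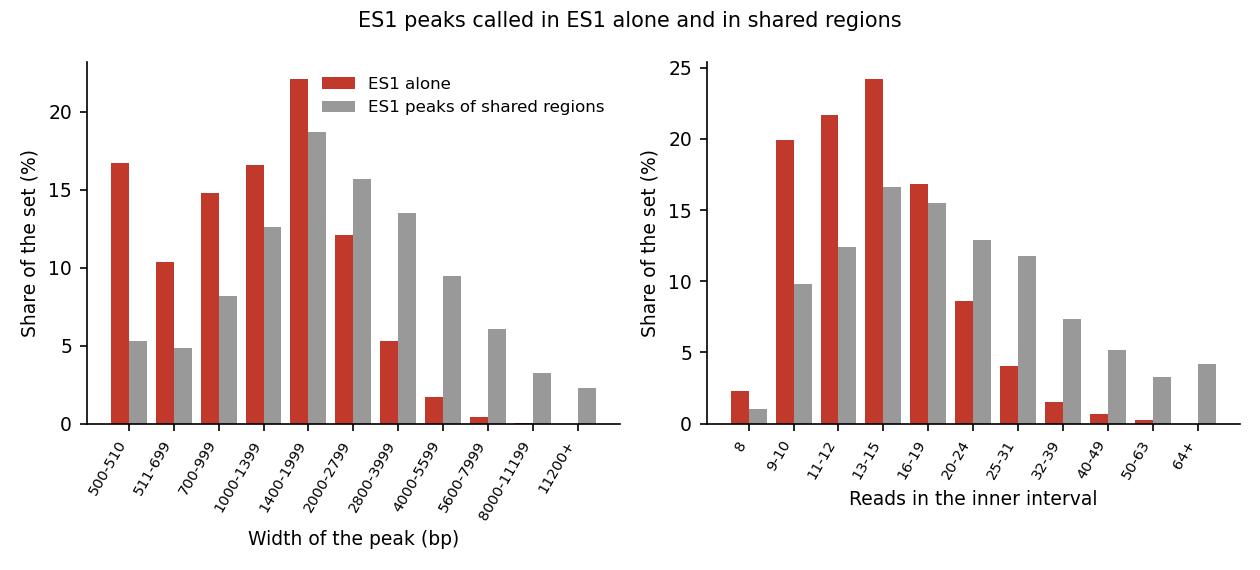
Share of peaks, in percent, by width class in bp (left) and by reads in the inner interval (right) for regions called in ES1 alone (red, n = 8416) and ES1 peaks of shared regions (grey, n = 17462). The red bars lead in the classes under 2000 bp and under 20 reads, and the grey bars lead in every wider class and in every class with more reads.

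Members were at the smallest number of reads more often than ES1 peaks of shared regions were. Of the members, 636 (7.56%, 7.00 to 8.14) held the fewest reads of any ES1 peak on their chromosome, against 3.17% (2.92 to 3.44) of the ES1 peaks of shared regions. That smallest number was 8 to 10 reads per chromosome in each of the 3 lists. The lists hold values for peaks alone, and the reads of ES2 and ES3 at the members are unknown.

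The edge of the rule was sharp for few regions. The smallest gap between a member and an ES2 or ES3 peak was 3 bp, 6 members (0.0713%) lay within 10 bp of such a peak and 31 (0.368%) within 100 bp. On the other side of the rule, 10 of the 17462 ES1 peaks of shared regions had at most 10 bp under ES2 or ES3 peaks, and the smallest overlap was 0 bp, a touch. The closest members were chromosome 1, 138501962 to 138502461, with 9 reads and an ES3 peak 3 bp away, chromosome 4, 133913241 to 133913740, with 11 reads and an ES3 peak 3 bp away, and chromosome 16, 16982827 to 16984642, with 10 reads and an ES2 peak 3 bp away. The region on chromosome 16 lay 3 bp from a shared region of 7855 bp, from 16984646 to 16992500, with 32 ES1 reads, 59 ES2 reads and 28 ES3 reads.

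The distance of each member to the nearest shared region was measured from edge to edge. Members within 5 kb are called satellites, members over 50 kb away isolated, and the rest intermediate. Satellites numbered 1971, or 23.4% of the members (95% interval 22.5 to 24.3), intermediate members 4475 (53.2%, 52.1 to 54.2) and isolated members 1970 (23.4%, 22.5 to 24.3). Over all 30974 union regions, 27.4% lay within 5 kb of a shared region other than themselves and 19.7% lay over 50 kb from one. The equal shares of satellites and isolated members depended on how the lists were cut. Satellites were 10.6% and isolated members 40.1% with all lists shortened by score, 13.7% and 33.7% with ES1 peaks above the median score alone, and 11.9% and 44.8% where shared meant called in all 3 lists. As listed, the members were satellites a little less often, and isolated a little more often, than regions at large, which include the members and the shared regions.

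Regions of a single other list had similar values. Regions of ES2 alone lay within 5 kb of a shared region in 23.8% of cases (22.4 to 25.1) and regions of ES3 alone in 24.5% (21.7 to 27.4), both with intervals that overlapped that of the members. The shares over 50 kb away were 23.4% for the members, 24.1% (22.7 to 25.4) for ES2 alone and 23.6% (20.9 to 26.5) for ES3 alone. The median distance was 15334 bp for the members, 15588 bp for ES2 alone and 15689 bp for ES3 alone. Shared regions lay closer to each other, at a median of 10279 bp, with 30.2% (29.5 to 30.9) within 5 kb and 16.7% (16.2 to 17.3) over 50 kb from another shared region. The shared regions are the same for all 3 lists, and regions of different lists can neighbour each other.

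**Figure D2:**
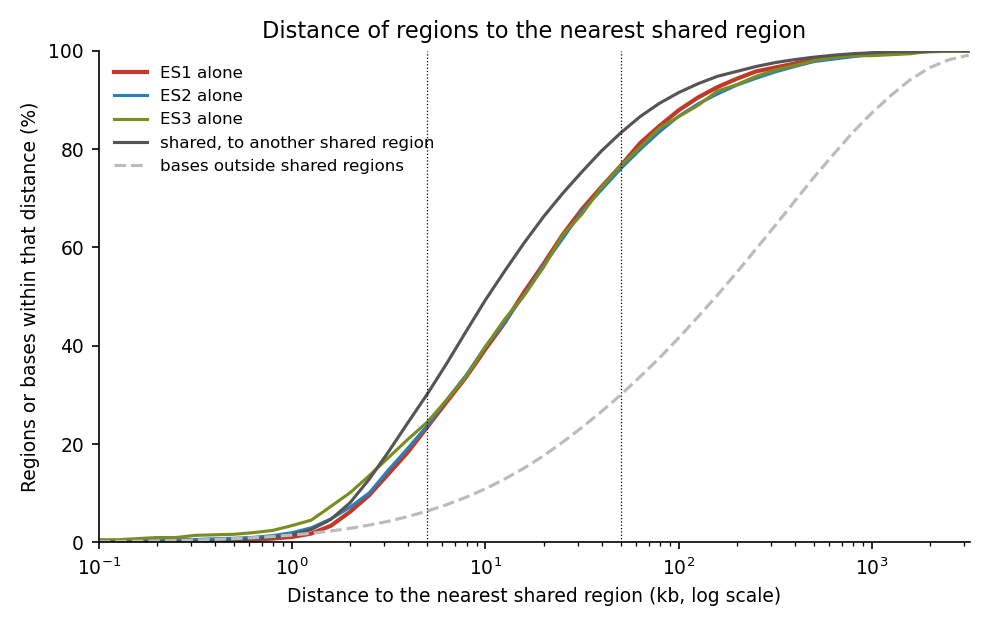
Percentage of regions within a given edge-to-edge distance of the nearest shared region (kb, log scale) for regions called in ES1 alone, ES2 alone and ES3 alone and for shared regions, with the percentage of bases outside shared regions within the same distance (dashed). Dotted lines mark 5 kb and 50 kb, where the curve of ES1 alone stands at 23.4% and 76.6%; the 3 curves of a single list run close together from 5 kb upwards, below the shared regions and far above the bases.

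Set against the genome, the members crowded around shared regions. Counted by midpoint, 19.8% of the members (19.0 to 20.7) lay within 5 kb of a shared region, where 6.37% of the bases outside shared regions lie. Over 50 kb away lay 23.7% of the members (22.8 to 24.6) and 70.0% of the bases. The density of members was highest at 2 to 5 kb, with 18.6 members per Mb (17.7 to 19.5), and fell with distance through 13.8 at 5 to 10 kb, 9.87 at 10 to 20 kb, 6.01 at 20 to 50 kb, 3.57 at 50 to 100 kb and 1.74 at 100 to 200 kb. Beyond 200 kb it was 0.455 per Mb (0.415 to 0.497), so that 45.0% of the bases held 5.69% of the members. Relative to each set's own mean density, the peak at 2 to 5 kb was 5.16 times for ES1 alone, 5.02 times for ES2 alone and 4.66 times for ES3 alone. Bases that cannot be mapped were not removed from these counts.

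Within 2 kb of a shared region the members, counted by midpoint, thinned out. Their density was 4.41 per Mb (3.72 to 5.20) at 1 to 2 kb and 0.342 per Mb (0.177 to 0.598) in the first kb, based on 142 and 12 members. Regions of ES2 alone had 3.29 per Mb (2.70 to 3.98) at 1 to 2 kb and 0.599 (0.371 to 0.916) in the first kb. Relative to each set's own mean, the density at 1 to 2 kb was 1.23 times for ES1 alone, 1.98 times for ES2 alone and 3.62 times for ES3 alone. In the first kb the smaller set of ES2 alone had the higher value, with overlapping intervals. Close neighbours were rare within the ES1 list as well: 0.618% of all ES1 peaks had another ES1 peak within 1 kb and 6.62% within 2 kb, against 34.8% within 5 kb. The midpoint of a region of at least 500 bp also cannot come nearer than its own flank allows. Measured from edge to edge, 532 members (6.32%, 5.81 to 6.86) lay within 2 kb. Regions of ES2 alone had 7.16% (6.37 to 8.02) and regions of ES3 alone 10.2% (8.29 to 12.3). Within 1 kb the shares were 1.11%, 1.98% and 3.43%. Median widths were 1176, 1032 and 940 bp, and the part of width in the differences by midpoint was not tested.

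**Figure D3:**
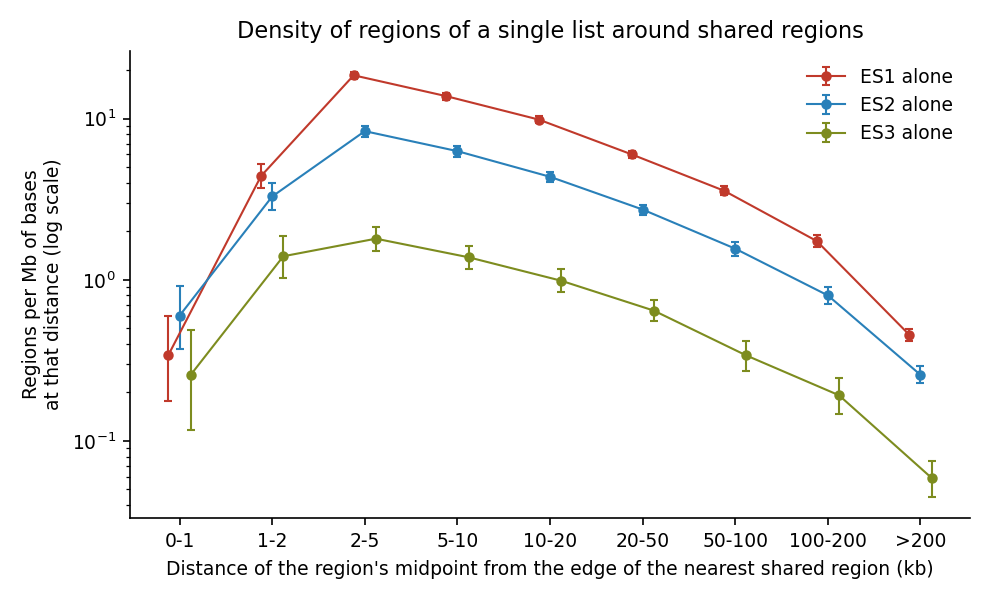
Regions per Mb (log scale) by distance of the region's midpoint from the edge of the nearest shared region, for ES1 alone, ES2 alone and ES3 alone; bars are exact Poisson 95% intervals. ES1 alone peaks at 18.6 per Mb at 2 to 5 kb and falls to 0.455 per Mb beyond 200 kb, and the other sets also peak at 2 to 5 kb and decline beyond it, at lower levels. Below 2 kb the shapes by midpoint differ, and in the first kb ES2 alone lies higher, at 0.599 against 0.342 per Mb for ES1 alone. Midpoints depend on region width, which differs between the sets.

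Satellites were wider than isolated members and had lower scores. Their median width was 1425 bp, against 1157 bp for intermediate and 1024 bp for isolated members, and the median scores were 13.1, 14.9 and 16.0. Median reads hardly differed, at 14, 13 and 13, while the highest value was 85 reads among satellites, 62 among intermediate and 45 among isolated members. The median inner interval was 1094 bp in satellites, 895 bp in intermediate and 822 bp in isolated members. At equal reads a shorter inner interval gives a higher score, so with similar reads the order of the scores is not a separate result. Scores also pool chromosomes with unlike step sizes, and the part of this in the order was not tested.

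Members with more reads lay nearer to shared regions. The share of satellites was 19.8% (18.1 to 21.7) at 8 to 10 reads, 21.3% at 11 to 12, 23.6% at 13 to 15, 25.1% at 16 to 20, 28.7% at 21 to 30 and 36.8% (30.6 to 43.3) at 31 to 85 reads. Isolated members made up 26.8% (24.8 to 28.9) of the class with the fewest reads and 11.5% (7.74 to 16.3) of the class with the most. Width gave the same order: satellites were 17.0% (15.0 to 19.0) of the members up to 510 bp and 35.2% (24.2 to 47.5) of the 71 members over 5000 bp. A wide peak also reaches further toward its neighbours, which shortens edge-to-edge distance. The classes of reads pool chromosomes with an inferred ES1 density of 0.736 to 1.45 reads per kb and a smallest peak of 8 to 10 reads. Isolated members ranged from 14.7% on chromosome 4 to 30.3% on chromosome 1. The part of the mix of chromosomes in the order by reads was not tested.

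Among shared regions the share within 5 kb also rose with reads, from 13 reads upwards. Shared regions with a single ES1 peak, placed in the same classes of ES1 reads, lay within 5 kb of another shared region in 27.4% (25.4 to 29.5), 24.3%, 25.3%, 27.0%, 30.9% and 39.0% (37.3 to 40.7) of cases. At 8 to 10 reads the members had 19.8% and the shared regions 27.4%, with intervals that did not overlap. At 31 to 85 reads the members had 36.8% and the shared regions 39.0%, and the intervals overlapped. The gap between members and shared regions was thus widest, in percentage points, among peaks with the fewest reads. The classes match ES1 reads alone and pool the chromosomes. Distances of shared regions run from the edges of the whole union region, ES2 and ES3 peaks included, and a wider region reaches nearer to its neighbours. The part of width in this gap was not tested.

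The shared regions beside which the members lay were a mixed set. The nearest shared region was called in all 3 lists for 43.6% of the members, in ES1 and ES2 for 43.6%, in ES1 and ES3 for 9.04% and in ES2 and ES3, where ES1 itself had no peak, for 3.75%. Those kinds made up 46.2%, 41.6%, 8.67% and 3.51% of the shared regions. Counting neighbours of every kind, the nearest region was another member for 27.6% of the members (26.7 to 28.6), and members are 27.2% of all regions. It was a shared region for 55.6% (54.5 to 56.7), and shared regions are 57.3% of all. A member thus had its own kind as nearest neighbour about as often as the makeup of all regions gives, and a shared region slightly less often.

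Other lists had peaks near many members, which by the rule overlap none of them. An ES2 peak lay within 5 kb of 24.5% of the members (23.6 to 25.4) and an ES3 peak within 5 kb of 13.0% (12.3 to 13.7), ES3 being the shortest list. Over 50 kb from any ES2 or ES3 peak lay 1469 members (17.5%, 16.6 to 18.3), and over 100 kb 721 (8.57%, 7.98 to 9.19). The members thus include regions close to a peak of another list and regions over 100 kb from any. These shares were not computed for other sets of regions, so they are not shown to be a trait of the members.

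Seen from the shared regions, a satellite was an occasional feature. Of the 17759 shared regions, 1893 (10.7%) were the nearest to at least 1 satellite: 1816 had 1, 76 had 2 and 1 had 3. The share was 5.58% and 6.17% with all lists shortened by score and by reads, and 4.25% with ES1 peaks above the median score alone. Among the satellites, 245 (12.4%, 11.0 to 14.0) had shared regions within 5 kb on both sides. Shared regions with a satellite had a median width of 3028 bp and a median of 20 ES1 reads, and those without one 2509 bp and 18 reads. The share with a satellite was 7.67% (6.29 to 9.26) for shared regions under 1 kb, 10.3% at 2 to 3 kb and 15.9% (14.5 to 17.4) at 5 to 10 kb, and was not higher in the widest classes, with 13.7% (11.1 to 16.6) at 10 to 20 kb and 12.6% (6.89 to 20.6) at 20 kb and over. By lists it was 11.1% (10.4 to 11.8) for regions of all 3 lists, 10.4% (9.73 to 11.1) for ES1 and ES2, 9.61% (8.18 to 11.2) for ES1 and ES3 and 10.4% (8.14 to 13.1) for ES2 and ES3, with overlapping intervals.

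The shared region with the most satellites was on chromosome 13, 44905071 to 44907962, called in ES1 with 20 reads and in ES3 with 9, with no ES2 peak. Its satellites were 44901057 to 44903761 with 10 reads, 44909974 to 44911615 with 16 reads and 44912910 to 44917489 with 9 reads, at 1309, 2011 and 4947 bp. ES1 thus had a run of 4 peaks where ES3 had 1 and ES2 none. Of the 76 shared regions with 2 satellites, those on chromosomes 11 and 2 had the satellites with the most reads. On chromosome 2 the shared region from 180432968 to 180443487, with 31 reads in ES1 and 27 in ES2, had a satellite on each side: 180426572 to 180431891, 5320 bp wide with 44 reads (32.0 to 59.1), and 180445486 to 180447346 with 12 reads.

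The member with the most reads was also the widest and was a satellite. It lay on chromosome 11, 62258010 to 62267283, and held 85 reads (67.9 to 105) over its whole 9274 bp, or 9.17 reads per kb. The nearest shared region, 2306 bp away at 62250701 to 62255703, was called in all 3 lists with 39 ES1 reads, 38 ES2 reads and 12 ES3 reads, and it had a further satellite at 62243739 to 62246122 with 22 reads. An ES2 peak lay 1424 bp from the widest member on its other side. The broadest domain of ES1 alone therefore lay between an ES2 peak and a region of all 3 lists.

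The next members by reads had similar neighbours. Chromosome 2, 26456921 to 26464105, held 63 reads (48.4 to 80.6) over 7185 bp and lay 1936 bp from a shared region of all 3 lists with 19 reads in ES1. Chromosome 11, 51432743 to 51439475, held 62 reads (47.5 to 79.5) and lay 3172 bp from one with 35 reads in ES1. Chromosome 15, 77130661 to 77137810, also held 62 reads and lay 6123 bp from one with 10 reads in ES1. Chromosome 16, 17616990 to 17622529, with 61 reads (46.7 to 78.4), was the farthest of the 5, at 27482 bp from a shared region of 659 bp. The nearest shared region was called in all 3 lists for each of the 5, which were picked for their reads.

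Width alone did not mark a strong region. The second and the third widest members, chromosome 5, 117829993 to 117839207, and chromosome 4, 151698731 to 151707722, were 9215 and 8992 bp wide but had inner intervals of 606 and 839 bp with 9 and 12 reads. In 70.4% of the members (69.4 to 71.4) the inner interval was the whole peak, against 53.3% (52.5 to 54.0) of the ES1 peaks of shared regions. The reads outside the inner interval are unknown.

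The 3 members of highest score were short. The highest score, 62.6, belonged to chromosome 14, 60880762 to 60881440, where 24 reads (15.4 to 35.7) lay in 501 bp, 9238 bp from a shared region of ES1 and ES2. Chromosome 12, 70891402 to 70892185, followed with a score of 45.4, and chromosome 3, 67386710 to 67387210, with 43.4. They held 18 and 16 reads and lay 31298 and 118485 bp from a shared region. None of the 3 was a satellite, and satellites were 23.4% of all members, so 3 picked members say little about distance. The first of them lay nearer to a shared region than the median member, at 15334 bp.

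The most remote members lay megabases from any shared region. Chromosome 8, 101939140 to 101940016, held 12 reads (6.20 to 21.0) and lay 3561400 bp from the nearest shared region and 3367747 bp from any ES2 or ES3 peak. Chromosome 19, 50513732 to 50515602, held 19 reads (11.4 to 29.7) at 2518984 bp, and chromosome 5, 86600903 to 86601402, held 9 reads (4.12 to 17.1) at 2459197 bp. Each was a single peak with no other member within 10 kb.

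Clustering of the members was described by chains, runs of members with gaps of at most 10 kb. The median gap from a member to the nearest other member was 36432 bp, with quartiles of 12690 and 92167 bp and a smallest value of 487 bp. In chains of 2 or more lay 1737 members (20.6%, 19.8 to 21.5), and 6679 stood alone. There were 809 such chains: 705 of 2 members, 91 of 3, 12 of 4 and 1 of 6. Pairs thus made up most of the chains, and long runs were rare. The share in chains was 11.4% and 10.5% with all lists shortened by score and by reads, and 9.81% with ES1 peaks above the median score alone. It was not computed for other sets of regions, so it does not separate clustering of the members from the density of peaks. The nearest region of any kind was another member for 27.6% of the members, and members are 27.2% of all regions.

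Of the 809 chains, 53 (6.55%, 4.95 to 8.48) had a shared region between their members, and 301 (37.2%, 33.9 to 40.6) had one inside or within 5 kb. The limit of 10 kb on the gaps restricts the room for a shared region between members. Chains of other sets were not measured, so the low share is not shown to be a trait of the members. Chained members were satellites in 23.1% of cases (21.2 to 25.2) and unchained members in 23.5% (22.5 to 24.5). Isolated members were 16.5% (14.8 to 18.4) of the chained and 25.2% (24.2 to 26.3) of the unchained. Chained members were thus isolated less often, while the intervals for satellites overlapped.

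The longest chain lay on chromosome 10, 79748864 to 79786307, a span of 37444 bp. Its 6 members held 14, 14, 12, 10, 19 and 15 reads, 84 in all, and widths from 1150 to 4109 bp. No shared region lay inside it or within 5 kb of it. Its members were 9992 to 27791 bp from the nearest shared regions, which were 79728201 to 79737293 on the left, called in all 3 lists, and 79796300 to 79800324 on the right, called in ES1 and ES2. An ES2 peak lay inside the span, 1624 bp from the second member, and no ES3 peak did.

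Another 12 chains had 4 members each, of which the 2 with the most reads are given. On chromosome 11, 52081779 to 52100717, they held 11, 29, 21 and 16 reads, and the first was a satellite, 2539 bp from a shared region of ES1 and ES2. On chromosome 6, 4921736 to 4944683, they held 27, 16, 15 and 13 reads and lay 10724 to 31784 bp from a shared region of all 3 lists, with ES2 peaks 258 and 652 bp from the second and the third member. In each of the 3 chains an ES2 peak lay within 2918 bp of a member without overlapping it.

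**Figure D4:**
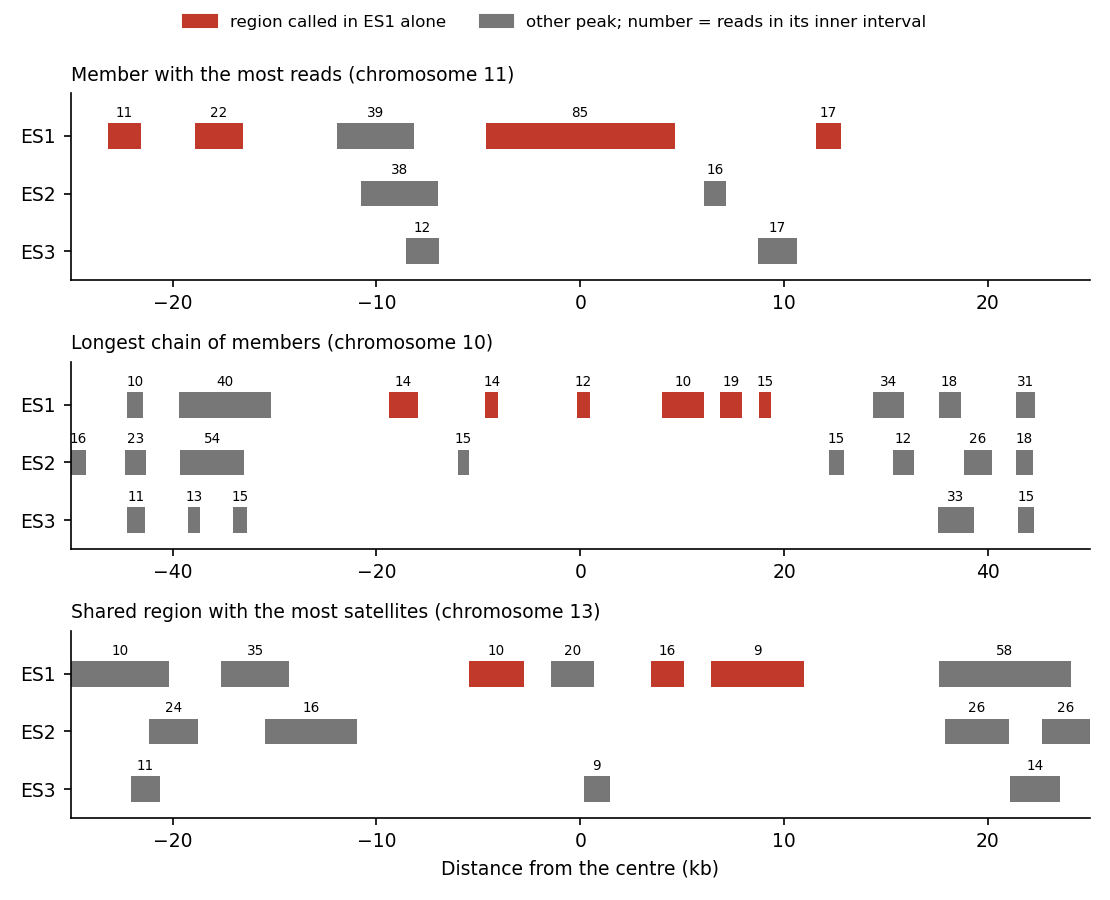
Peaks of ES1, ES2 and ES3 around the member with the most reads (top), the longest chain (middle) and the shared region with the most satellites (bottom), by distance from the centre in kb; red boxes are regions called in ES1 alone, grey boxes other peaks, and numbers are reads in the inner interval. The member of 85 reads sits beside a region of all 3 lists, the chain of 6 members has a single ES2 peak inside its span, and the shared region on chromosome 13 has 3 satellites.

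On the scale of megabases the members followed the shared regions. Chromosomes 1 to 19 were divided into 2481 windows of 1 Mb. The median window held 2 members, 796 windows held none, and 547 of these held no shared region either. Across windows the numbers of members and of shared regions had a Pearson r of 0.81 and a Spearman rho of 0.85. This is a description over neighbouring windows of the same lists, which share gene density, mappability and base composition. The 248 windows with the most members held 36.0% of the members, against 40.2% of the shared regions in as many windows with the most shared regions.

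The richest window was chromosome 7, 29000001 to 30000000, with 25 members and 38 shared regions, followed by chromosome 10, 79000001 to 80000000, which contains the longest chain, with 22 members and 50 shared regions. Windows richer in shared regions had fewer members for each shared region. There were 0.708 members per shared region in windows with 1 to 5 shared regions, 0.528 with 6 to 15 and 0.378 with more than 15. The windows were grouped by the number that is also the divisor, which can by itself lower the ratio in the richer classes. In the 673 windows with no shared region the mean was 0.264 members and the highest 6.

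The share of ES1 regions that were called in ES1 alone differed between chromosomes. It was highest on chromosome 2, with 38.1% (35.9 to 40.3), and lowest on chromosome 8, with 26.8% (24.6 to 29.1), a ratio of 1.42 (1.28 to 1.57). Both chromosomes were picked as the extremes of these same shares. The interval of the ratio does not allow for that choice, and it is no test of a difference. The intervals of chromosomes 2, 5 and 11 lay above the 32.9% of all chromosomes, and those of chromosomes 4, 6, 8 and 14 lay below it. For ES2 alone the share of ES2 regions ran only from 17.0% on chromosome 19 to 21.9% on chromosome 12, and 0 of the 19 intervals left out the overall 19.4%. The ES2 sets are smaller, so their intervals are wider relative to the share. The density of members was highest on chromosome 11, with 5.58 per Mb, and lowest on chromosome 14, with 2.57 per Mb.

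**Figure D5:**
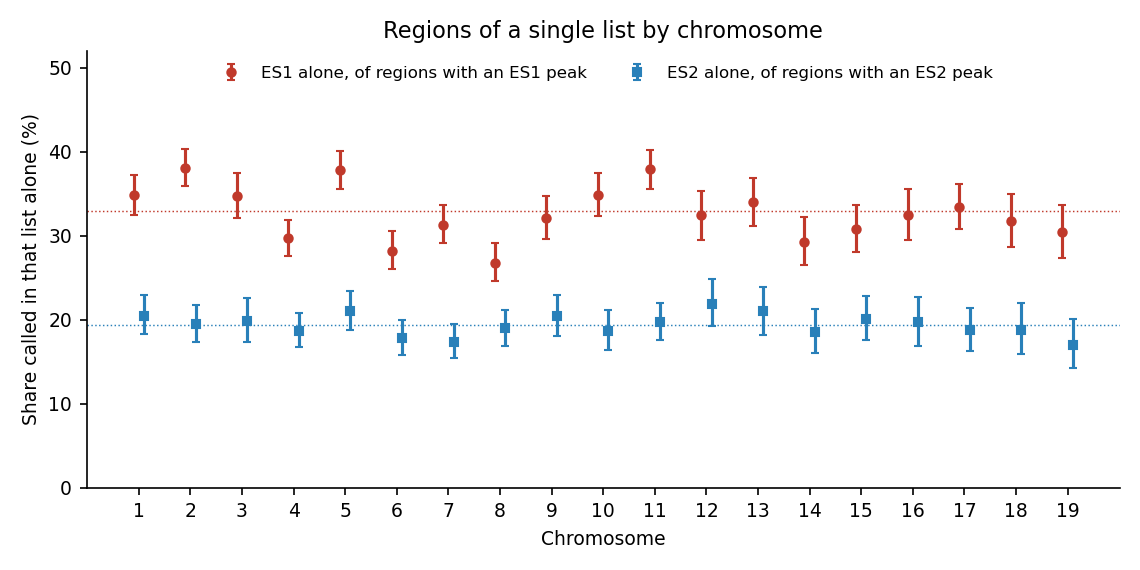
Percentage of regions with an ES1 peak that were called in ES1 alone (red circles) and of regions with an ES2 peak that were called in ES2 alone (blue squares), by chromosome, with exact binomial 95% intervals; dotted lines mark the shares over all 19 chromosomes, 32.9% and 19.4%. The red points run from 26.8% on chromosome 8 to 38.1% on chromosome 2, and the blue points stay between 17.0% and 21.9%.

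The read density of the lists, inferred from the size of the steps of the score, varied by chromosome as well. On chromosome 2 the mean ES2 density was 1.14 times and the mean ES3 density 1.06 times that of ES1, and on chromosome 8 the values were 1.11 and 1.01. On chromosome 11 they were 1.04 and 0.898, the lowest of all chromosomes. The chromosomes with high shares of ES1 alone thus included both high and low ratios of read density, and the part of these ratios in the shares was not tested.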

How the data were processed

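The data were 3 peak lists of the whole series. Reads were aligned with Bowtie to mm9, per the submitters' processing notes. Not given in the sources used here are the peak caller, duplicate filtering, and the mark and cells behind the lists. Each peak carries a score deposited by the authors with no stated unit. Scores themselves were compared only within a list, and were used to recover reads (tolerance 0.001). Their steps were also used to compare mean read density between lists by chromosome. Mean density by chromosome, inferred from the size of the steps of the score, was 0.736 to 1.45 reads per kb for ES1. It was 0.853 to 1.51 for ES2 and 0.783 to 1.30 for ES3. This density sets the precision of each peak's reads.

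Regions were merged, measured and counted in Python 3.11.15 with numpy 2.4.6, pandas 2.3.3 and scipy 1.17.1, and drawn with matplotlib 3.10.9. Coordinates are 1-based mm9. Intervals are exact Clopper-Pearson for shares and exact Poisson for reads and densities, at 95%. Bases were counted between the first and last peak of each chromosome. The scripts were tested on simulated lists with known answers. Gene positions were not analysed, since no mm9 annotation was used.

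Named regions are the 5 members with the most reads, the 3 widest, the 3 of highest score, the 3 farthest from a shared region, those with the smallest gap to another list, the 3 chains of most members and the 3 shared regions with the most satellites, ties being broken by reads. The members, thresholds and lists were chosen with earlier results of these data known. Alternatives covered merging, peak thresholds, list length, overlap, the meaning of shared, distances and chain gaps.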

Additional observations from a re-analysis of the deposited data

How the results depend on the processing

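Of 51 values under alternatives, 13 stayed within the counting interval of the main value (or 1.5 times a count) and 38 moved. None of them has a test. The 8416 members became 5564 with peaks within 5 kb merged, 4198 with ES1 peaks above the median score alone, and 5017 or 3628 with all lists shortened to 12391 peaks by score or by reads. Of these, 3939 and 2297 were identical to a member. With under 50% of an ES1 peak's length covered as the rule there were 11770, among them all 8416. Satellites (23.4%) became 13.7% above the median score, 10.6% and 18.2% with lists shortened by score and by reads, 11.9% with shared meaning all 3 lists, 6.32% and 39.3% at 2 kb and 10 kb, 19.8% from midpoints, 26.3% among the 3935 members above the median reads and 20.2% among the 7951 at least 2 kb from every other ES1 peak. Isolated members (23.4%) became 31.4% with peaks within 5 kb merged, 33.7% above the median score, 40.1% and 32.1% with lists shortened, 44.8% with shared meaning all 3 lists, 24.3% with shared requiring an ES1 peak, 20.7% above the median reads and 24.6% away from other ES1 peaks. Chained members (20.6%) became 19.4% and 8.59% with peaks within 1 kb and 5 kb merged, 9.81% above the median score, 11.4% and 10.5% with lists shortened, 10.1% and 34.4% with chain gaps of 5 kb and 20 kb, and 19.5% where a shared region ended a chain. Shared regions with a satellite (10.7%) became 10.1% with peaks within 1 kb merged, 4.25% above the median score, 5.58% and 6.17% with lists shortened, 11.7% with shared meaning all 3 lists, 2.95% and 17.0% at 2 kb and 10 kb, and 9.12% from midpoints. The ratio of chromosome 2 to chromosome 8, 1.42, became 1.22 under the 50% rule and was 1.28 to 1.46 otherwise. Fewer peaks leave fewer neighbours by construction. Further causes were not tested. The lists shortened by reads with distances recomputed, and the members away from other ES1 peaks, were chosen after seeing the data. Merging within 5 kb leaves no satellites by construction, the 50% rule has no distance value, and the counts at genes were not run. No paired analysis was possible because the lists carry no replicate numbers. Depth limits each member to the 8 to 85 reads behind it.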

Other observations

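Chromosome X lies outside the rule that chose the members. There, 213 of the 413 regions with an ES1 peak (51.6%, 95% interval 46.6 to 56.5) were called in ES1 alone. Of those 213 regions, 9.39% (5.83 to 14.1) lay within 5 kb of a shared region and 52.1% (45.2 to 59.0) over 50 kb from one, at a median distance of 53106 bp. Their median width was 940 bp and their median number of reads 8, at an inferred chromosome mean of 0.257 ES1 reads per kb. Chromosome X held 224 shared regions among its 606 union regions, against 17759 among 30974 on chromosomes 1 to 19. The shares of ES2 alone and ES3 alone on X are not given here, so the high share is not shown to be particular to ES1. ES1 read density was thus lower on X than on any of chromosomes 1 to 19, where it was 0.736 to 1.45 reads per kb, and the part of that density in the shares was not tested.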
